A study of Homo sapiens with 6 samples.

Results

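Interferon-stimulated effector genes are the genes through which a cell that has sensed interferon resists viruses: RNA sensors, proteins that bind or degrade viral RNA, the ubiquitin-like protein ISG15 with its conjugating enzymes, antiviral GTPases and membrane proteins that act on virus entry and release. The members were taken from a list of 40 names, as the rows of the deposited expression table that carry one of them; the list leaves out IRF, STAT and chemokine genes. Of the 12829 genes in the table, 39 were members, since the name RIGI is the newer symbol of a gene that the table gives as DDX58. The members were sorted by role into 11 classes.

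RNA-seq libraries had been made from HaCaT, an immortalised and aneuploid keratinocyte line from human skin that often stands in for epidermal cells in culture. The knockdown group was 3 libraries of HaCaT cells with a short hairpin RNA against IQGAP2, with the genotype given as IQGAP2 knockdown, and the control group was 3 libraries of HaCaT cells labelled normal control, with the genotype given as WT. IQGAP2 is a scaffold protein that binds calmodulin and actin, and the title of the series links its loss to proliferation and mTOR signalling. All cells were grown in DMEM with fetal bovine serum, and no interferon, virus or other agent is named for either group. The labels do not say whether control cells carried a non-targeting hairpin, how many hairpins or clones were used, or whether each library had its own culture. The p-values therefore describe the spread among these libraries alone, and that spread may be technical. From these labels, an effect of IQGAP2 loss and an effect of receiving or carrying a hairpin cannot be told apart.

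In the background biology, RNA in the wrong compartment is sensed by RIG-I (DDX58) and MDA5 (IFIH1), which signal through MAVS to the kinase TBK1 and the factors IRF3 and IRF7 and so switch on interferon genes. Secreted type I and type III interferons bind their receptors, the kinases JAK1 and TYK2 phosphorylate STAT factors, and a complex of these with IRF9 binds a DNA element called the ISRE upstream of effector genes. Type II interferon acts through another element, the GAS. Keratinocytes are known to make and answer type I and type III interferons.

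IQGAP2 (ENSG00000145703, GRCh38 chr5:76403249-76708132, plus strand), the targeted gene, had 2, 4 and 2 recovered reads in knockdown replicates 1 to 3, against 24, 22 and 21 in control replicates 1 to 3. Its level was 0.0235 ± 0.00808 FPKM in knockdown against 0.196 ± 0.00547 FPKM in control libraries (SD, n = 3 each), which is 12% of the control level (log2 change -0.22, SE 0.072, limma adjusted p = 0.0217; exact two-sided permutation p = 0.1, the smallest that 3 libraries against 3 allow). The limma call was lost without any one control library or without knockdown replicate 3 (adjusted p 0.0533 to 0.0592), while the log2 change was -1.26 with a pseudocount of 0.1 (adjusted p = 0.00506) and -2.86 by voom on recovered reads (adjusted p = 4.70e-05), scales that compress low values less. FPKM is fragments per kilobase of transcript scaled by depth; recovered reads summed to between 12901037 and 15360759 per knockdown library and between 13957447 and 15122470 per control library. FPKM sums were 234624 to 248082 in knockdown and 271372 to 274709 in control libraries. Knockdown replicate 2 was the odd library: its chi-square of reads per gene was 11.3 and 10.5 against knockdown replicates 1 and 3, where all other pairs within a group gave 2.10 to 2.49. The 10 keratinocyte markers summed to 6972 to 7655 FPKM in knockdown against 6873 to 6968 FPKM in control libraries. KRT14, the highest, was at 2313 ± 190.2 FPKM in knockdown against 2575 ± 62.0 FPKM in control libraries, short of the threshold (adjusted p = 0.117). Of the 10 markers, 6 rose and 0 fell (median log2 change 0.27), led by DSG3 (2.12-fold), COL17A1 (2.09-fold) and ITGA6 (1.86-fold). Of all genes tested, 29.5% were higher and 27.8% lower. KRT14, KRT17, SFN and ITGB4 did not pass, with log2 changes of -0.16, -0.06, -0.07 and -0.01. Without knockdown replicate 2, 6 markers were higher and 1 lower. The markers that rose went the same way as most members, and the part of keratinocyte genes in the members' changes was not tested. Of the other markers, 3 of 7 fibroblast genes (COL1A1, DCN and LUM) summed to 1.56 to 1.91 and 3.46 to 3.79 FPKM, 1 of 6 melanocyte genes (PMEL) lay at 0.651 to 0.838 and 0.822 to 0.968 FPKM, 1 of 7 immune genes (CD14) at 0.0467 to 0.261 and 0.172 to 0.557 FPKM, and 2 of 5 endothelial genes (CDH5 and VWF) summed to 0.424 to 0.484 and 0.269 to 0.401 FPKM, each with knockdown before control. Of the fibroblast genes, LUM fell, at 0.268 FPKM in knockdown against 2.21 FPKM in control libraries (log2 change -1.34, limma adjusted p = 6.40e-06). COL1A1 did not pass (log2 change 0.13), and DCN was under the filter. The other markers on those lists were not analysed here, and what part other cell types have in the changes of members was not tested.

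Promoter sequence from RefSeq (GRCh38.p14), 250 bases before to 50 after a gene's start, was matched for 31 of the 39 members by symbol, in 43 windows. DHX58, IFIT2, IFITM2, MX2, OAS2, OASL, TRIM22 and USP18 had none. The core of the ISRE, searched on both strands as GAAA followed by any 2 bases and a second GAAA, was found for 23 of the 31 members. It stood in 65.1% of the members' windows, against 3.57% of all 35116 RefSeq windows and 2.89% of the 13205 windows of genes tested. The GAS letters TTCNNNGAA, which read the same on both strands, were found for 8 members and in 23.3% of their windows, against 7.66% of all windows and 6.10% of those of genes tested; 6 of their 11 matches overlapped an ISRE match. The stretches below show the ISRE letters in capitals, with 25 bases on either side, read 5′ to 3′ on each gene's own strand. They were chosen to set members with large rises (ISG15, RSAD2, IFIT1) and a divergent pair that shares 1 site (DTX3L and PARP9) beside members that fell (BST2, IFITM3) or did not pass the test (GBP1).
ISG15: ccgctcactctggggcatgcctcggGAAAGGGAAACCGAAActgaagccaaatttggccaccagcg
RSAD2: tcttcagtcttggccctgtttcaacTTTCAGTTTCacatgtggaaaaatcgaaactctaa
IFIT1: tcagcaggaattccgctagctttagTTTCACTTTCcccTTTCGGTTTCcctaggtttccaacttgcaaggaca
DTX3L: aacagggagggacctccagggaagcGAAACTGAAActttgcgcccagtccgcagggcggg
PARP9: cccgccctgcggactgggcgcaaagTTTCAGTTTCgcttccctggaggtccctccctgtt
BST2: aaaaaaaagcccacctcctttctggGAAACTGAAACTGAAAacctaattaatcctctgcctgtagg
IFITM3: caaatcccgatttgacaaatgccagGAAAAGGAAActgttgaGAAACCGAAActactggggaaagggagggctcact
GBP1: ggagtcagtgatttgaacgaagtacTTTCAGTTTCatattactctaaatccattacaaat

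These stretches lie at chr1:1013359-1013424 (plus strand) for ISG15, chr2:6877607-6877666 (plus) for RSAD2, chr10:89392482-89392554 (plus) for IFIT1, chr3:122564307-122564366 for DTX3L (plus) and PARP9 (minus), chr19:17405720-17405785 (minus) for BST2, chr11:320861-320937 (minus) for IFITM3 and chr1:89065301-89065360 (minus) for GBP1. ISG15 and BST2 each hold 2 overlapping matches, which begin 113 bases before the start in ISG15 and 130 bases before it in BST2. The RSAD2 stretch comes from the window at chr2:6877527-6877826. Another RSAD2 window, at chr2:6865635-6865934 where the gene overlaps CMPK2, held no match. The DTX3L and PARP9 stretches are the same 60 bases read on opposite strands, and the genes are transcribed away from each other there. Of the 23 members with the letters, 16 were higher in the knockdown, 3 lower and 4 did not pass the test, with a median log2 change of 0.51. Of the 8 without them (CMPK2, DDX58, HERC6, IFI35, OAS1, SAMD9L, UBE2L6 and XAF1), 5 were higher, 0 lower and 3 did not pass, with a median of 0.86. Over all genes tested, 29.5% were higher and 27.8% lower. A match describes letters in a window and is not evidence of binding, and a window without a match was searched for these letters only. Windows of CMPK2, DDX58, IFI35, OAS1 and XAF1 hold GAAA words with a single base between them, on either strand, which the search did not count. The medians with and without the letters therefore depend on the spacing searched.

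Most interferon-stimulated effector genes were higher in IQGAP2 knockdown cells. Of the 39 members, 28 rose, 4 fell (BST2, IFITM2, IFITM3 and IFI27) and 7 did not pass the test (IFI35, IFI44, UBE2L6, HERC5, OAS1, GBP1 and IFITM1). Among all 11214 genes tested, 29.5% were higher and 27.8% lower by the same rule, an adjusted p under 0.05 in limma. The median log2 change was 0.59 over the members and 0.01 over all genes tested. Each log2 change is the knockdown minus the control mean of log2(FPKM + 1), a scale on which changes of low genes look smaller than they are. All 39 members passed the filter of a mean of 0.5 FPKM over the 6 libraries, but DDX58 passed it through its knockdown level alone, so it had to differ; over the other 38 members 27 rose, 4 fell and the median was 0.55. Without knockdown replicate 2, 31 of the 39 members were higher and 4 lower, with a median of 0.55. Every knockdown library lay above every control library for 30 members and below for 4, and the groups overlapped for 5; 33.7% of all genes tested lay above without overlap and 31.4% below. In bulk RNA, a change in the share of cells that express a gene and a change in RNA per cell cannot be told apart.

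**Figure D1:**
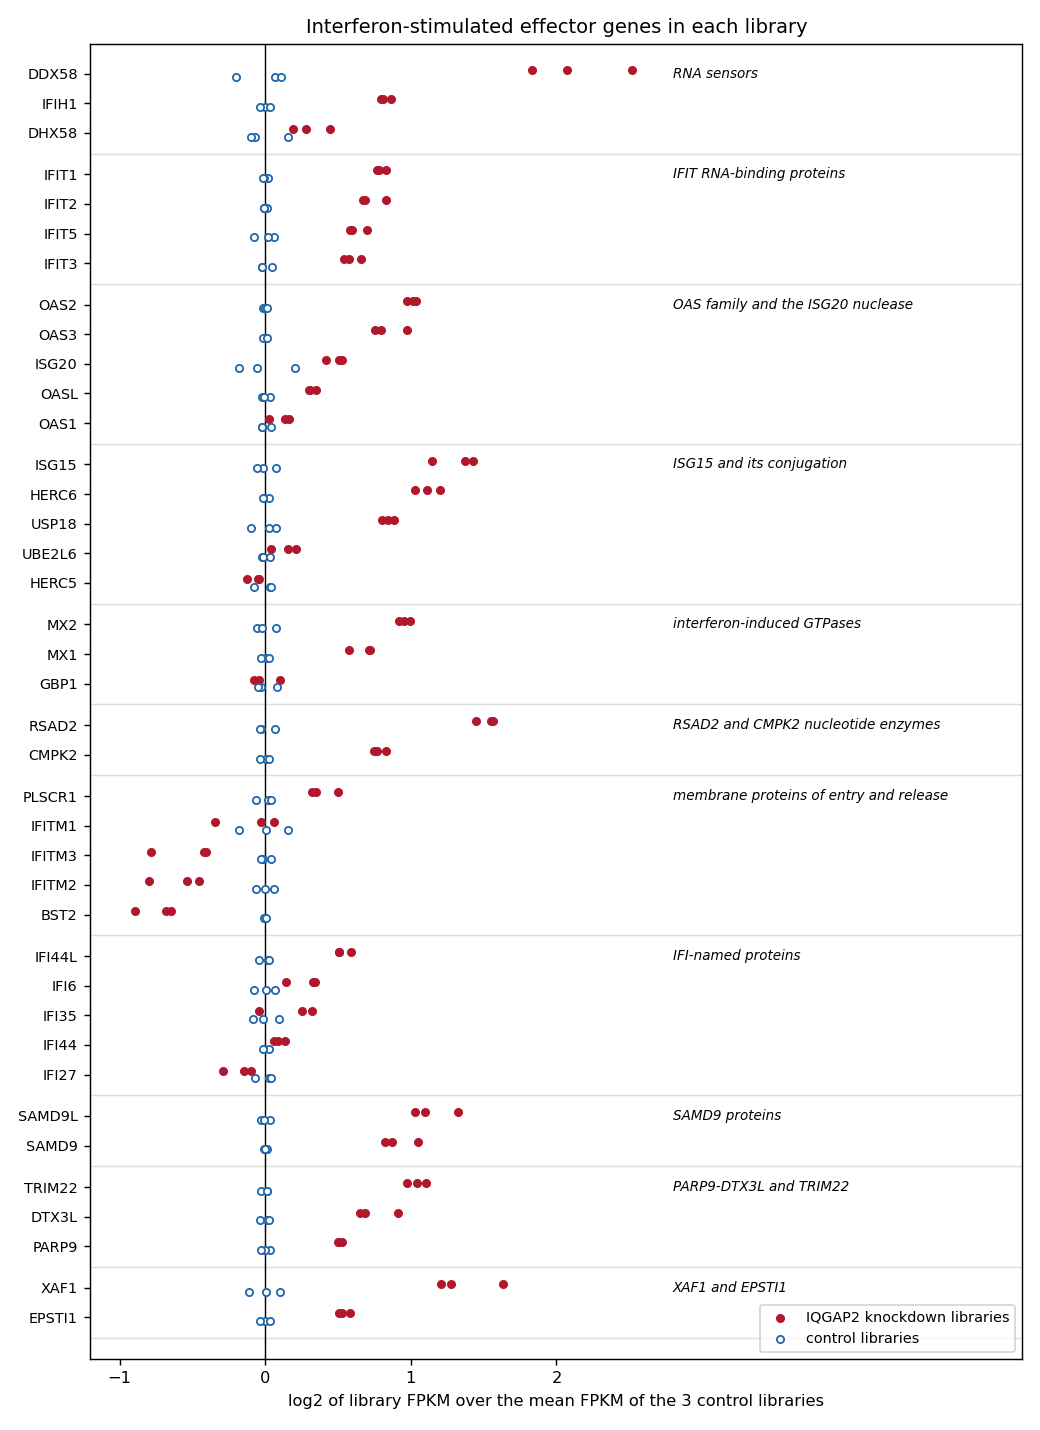
Each member's FPKM in each library, as log2 of the ratio to the mean of the 3 control libraries (horizontal axis), with members down the page in their classes; filled red points are IQGAP2 knockdown libraries and open blue points control libraries. The 3 knockdown points lie right of all control points for 30 members and left of them for IFI27, BST2, IFITM2 and IFITM3.

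The members together took 1.64%, 1.61% and 1.63% of recovered reads in knockdown replicates 1 to 3, against 1.18%, 1.17% and 1.18% in control replicates 1 to 3. The groups did not overlap, and the share was higher in every knockdown library. Per length, the members spanned levels from DDX58, at 1.74 FPKM in knockdown against 0.387 FPKM in control libraries, to ISG15, at 1752 and 703 FPKM. ISG15 alone was 29.9% to 32.6% of the members' summed FPKM in knockdown libraries and 16.6% to 17.8% in control libraries.

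The libraries' scale matters for the counts. With every library rescaled to a common FPKM sum, 43.4% of all genes tested were higher and 16.4% lower, and 72.6% of all calls were upward, against 51.5% for the values as deposited. The median of all genes was then 0.14, and 32 members were higher and 3 lower with a median of 0.75. IFI27 was the fall that this rescaling removed, while BST2, IFITM2 and IFITM3 stayed lower.

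The 3 RNA sensors all rose. DDX58 (ENSG00000107201, chr9:32455705-32526324 in GRCh38, minus strand), which encodes the RNA helicase RIG-I that recognises viral RNA with triphosphate ends, had 1.63, 2.21 and 1.37 FPKM in knockdown against 0.406, 0.417 and 0.337 FPKM in control replicates. It was scarce in control cells, with 49 to 64 reads per control library, and all knockdown libraries were above them, replicate 2 the highest. The knockdown mean was 4.49-fold the control mean (3.88-fold without knockdown replicate 2), with a log2 change of 0.97 (SE 0.11, adjusted p = 5.26e-05) that was 1.90 with a pseudocount of 0.1 and 2.15 by voom on recovered reads. IFIH1, the helicase MDA5 that senses long double-stranded RNA, had 43.8, 43.5 and 45.7 FPKM in knockdown against 25.1, 25.7 and 24.4 FPKM in control replicates, a 1.77-fold rise (log2 change 0.80, adjusted p = 7.85e-07). Its groups were tight and far apart. DHX58, or LGP2, which modulates both helicases and lacks their signalling domains, was 10.7 ± 0.972 FPKM in knockdown against 8.64 ± 0.844 FPKM in control libraries. That log2 change of 0.28 (adjusted p = 0.0130) was 0.43 with a common sum, and was no longer called without control replicate 1 (adjusted p = 0.0537) or 3 (adjusted p = 0.0578), and over the 14 alternatives the adjusted p lay between 6.16e-04 and 0.0578.

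The 4 IFIT genes, whose products bind viral RNA ends and block its translation, rose by similar amounts, with log2 changes of 0.59 to 0.78. IFIT1 (ENSG00000185745, chr10:89392546-89406486, plus strand), which binds RNA caps that lack methylation, had 119.8, 116 and 115 FPKM in knockdown against 68.5, 67.2 and 66.9 FPKM in control replicates. IFIT2 had 107, 119 and 108 FPKM in knockdown against 67.7, 66.6 and 66.7 FPKM in control replicates. Both genes were without overlap, and IFIT2 was highest in knockdown replicate 2. The rise was 1.73-fold for IFIT1 (SE of the log2 change 0.042, adjusted p = 5.19e-07) and 1.66-fold for IFIT2 (SE 0.051, adjusted p = 3.23e-06). IFIT5 and IFIT3, a partner that stabilises IFIT1 on RNA, rose 1.55-fold and 1.51-fold. The 4 genes lie in the order IFIT2, IFIT3, IFIT1 and IFIT5 on chromosome 10, with gaps of 18617, 51574 and 8099 bases in GENCODE v29.

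The 2′-5′-oligoadenylate synthetases make the messenger that activates RNase L, and their changes were uneven. OAS2 (ENSG00000111335, chr12:112978395-113011723, plus strand) had 91.6, 95.6 and 94.6 FPKM in knockdown against 46.3, 46.8 and 47.1 FPKM in control replicates. OAS3, known as the chief activator of RNase L in human cells, had 84.3, 97.9 and 86.6 FPKM in knockdown against 50.2, 49.2 and 50.2 FPKM in control replicates. The groups of both genes were far apart. OAS2 rose 2.01-fold (log2 change 0.99, SE 0.041, adjusted p = 1.30e-07) and OAS3 1.80-fold (0.83, SE 0.058, adjusted p = 2.80e-06). Their neighbour OAS1 was at 24.4 ± 1.20 FPKM in knockdown against 22.6 ± 0.533 FPKM in control libraries, short of the threshold (log2 change 0.10, 95% interval -0.01 to 0.22, adjusted p = 0.105), although it lies 5129 bases from OAS3, and OAS3 5145 bases from OAS2. OAS1 passed upward with values rescaled to a common sum (0.26), after quantile normalization (0.14) and without knockdown replicate 2 (0.14). It turned to -0.05 with the trend over the length implied by FPKM removed. OASL, a family member without synthetase activity that boosts RIG-I signalling, rose 1.25-fold (log2 change 0.32, and 0.48 with a common sum). The exonuclease gene ISG20 was low and rose 1.40-fold, at 5.35 ± 0.210 FPKM in knockdown against 3.82 ± 0.535 FPKM in control libraries (adjusted p = 0.00254).

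ISG15, a ubiquitin-like protein that is attached to newly made proteins and also secreted, was the most abundant member per length. ISG15 (ENSG00000187608, chr1:1001138-1014540, plus strand) had 1885, 1553 and 1818 FPKM in knockdown against 695, 675 and 738 FPKM in control replicates. Knockdown replicate 2 was the lowest of its group and still over all controls. The rise was 2.49-fold, with a log2 change of 1.31 (SE 0.081, adjusted p = 1.33e-06). HERC6, an E3 ligase for ISG15 in the mouse, had 17.9, 16.8 and 15.9 FPKM in knockdown against 7.76, 7.94 and 7.70 FPKM in control replicates, a 2.17-fold rise (log2 change 1.02, SE 0.057, adjusted p = 7.40e-07). USP18, the protease that removes ISG15 and also dampens the type I receptor, rose 1.79-fold, at 68.1 ± 1.96 FPKM in knockdown against 38 ± 2.30 FPKM in control libraries. The E2 enzyme and the main human ligase did not pass the test. UBE2L6, the E2, was at 194 ± 11.9 FPKM in knockdown against 177 ± 3.74 FPKM in control libraries (log2 change 0.13, adjusted p = 0.0550), and HERC5, the ligase, at 13.0 ± 0.389 and 13.7 ± 0.624 FPKM (log2 change -0.07, adjusted p = 0.310). UBE2L6 passed upward in 6 of the 14 alternatives, and HERC5 turned to 0.09 with values rescaled to a common sum. HERC5 and HERC6 are neighbours on chromosome 4, 14005 bases apart.

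Among the interferon-induced GTPases, MX1 and MX2, which assemble on incoming viral nucleocapsids, rose, and GBP1 did not pass. MX2, known to restrict HIV, had 15.7, 16.1 and 16.6 FPKM in knockdown against 8.0, 8.76 and 8.20 FPKM in control replicates (1.94-fold, log2 change 0.88, SE 0.055, adjusted p = 1.40e-06). MX1, which acts against influenza viruses, had 17.7, 16.1 and 17.8 FPKM in knockdown against 10.8, 11 and 10.6 FPKM in control replicates (1.59-fold, log2 change 0.62, SE 0.055, adjusted p = 1.32e-05). Neither overlapped. GBP1, a guanylate-binding protein that answers chiefly to type II interferon, was at 8.87 ± 0.587 FPKM in knockdown against 8.89 ± 0.434 FPKM in control libraries. Its log2 change was -0.00 with a 95% interval of -0.15 to 0.14 (adjusted p = 0.972), and scaling to a common sum gave 0.15 (adjusted p = 0.118).

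RSAD2 had the largest change of the 39 members on the log2(FPKM + 1) scale and in 10 of the 14 alternatives. DDX58 exceeded it with a pseudocount of 0.1 (1.90 against 1.52) and by voom (2.15 against 1.52), and ISG15 after quantile normalization (1.68 against 1.55) and, narrowly, with the length trend removed. RSAD2 (ENSG00000134321, chr2:6865806-6898239, plus strand), or viperin, makes a chain-terminating form of CTP, and had 134, 135 and 125 FPKM in knockdown against 47.9, 44.8 and 44.7 FPKM in control replicates. The rise was 2.87-fold, with a log2 change of 1.5 (SE 0.050, adjusted p = 3.43e-08). CMPK2, a mitochondrial kinase that supplies CTP and overlaps the start of RSAD2 head to head, had 33.0, 34.5 and 32.6 FPKM in knockdown against 19.5, 18.9 and 19.7 FPKM in control replicates. It rose 1.72-fold (log2 change 0.75, SE 0.046, adjusted p = 1.33e-06). The SAMD9 pair on chromosome 7, whose products block translation during infection, rose too. SAMD9L had 16, 18.7 and 15.3 FPKM in knockdown against 7.65, 7.33 and 7.44 FPKM in control replicates (2.23-fold, log2 change 1.05, SE 0.073, adjusted p = 2.67e-06). SAMD9 had 78.0, 88.6 and 75.6 FPKM in knockdown against 42.6, 43.0 and 42.7 FPKM in control replicates (1.89-fold, log2 change 0.90, SE 0.059, adjusted p = 1.98e-06). Both were without overlap and highest in knockdown replicate 2.

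**Figure D2:**
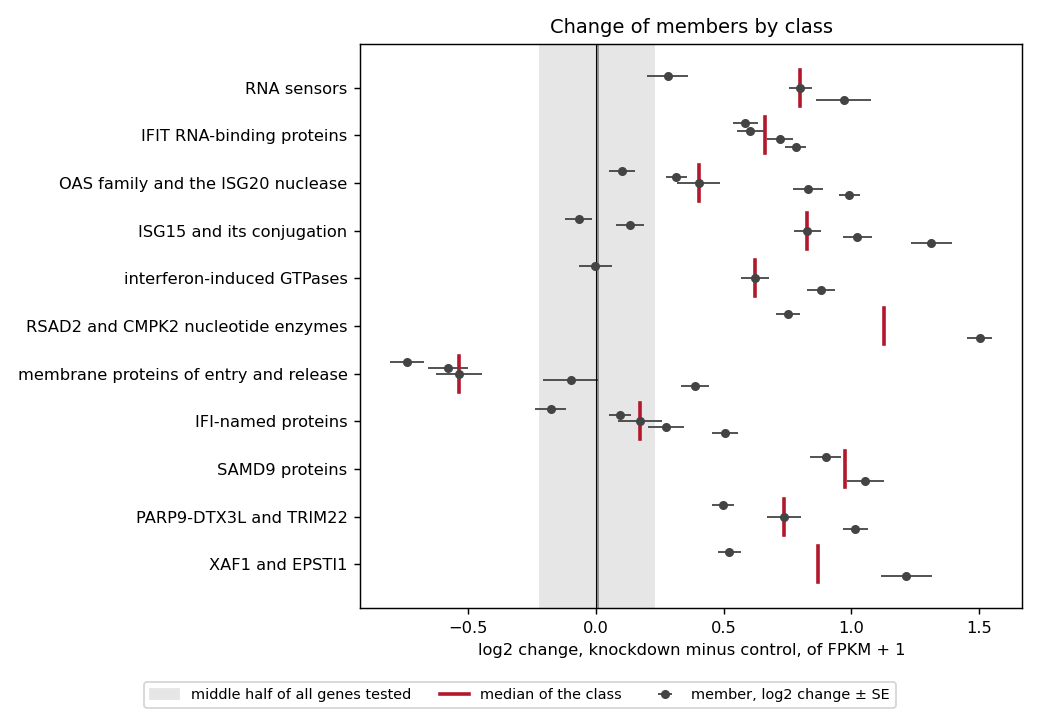
Log2 change (knockdown minus control, of FPKM + 1) of each member with its SE, by class; red bars mark class medians and the grey band the middle 50% of all genes tested, from -0.22 to 0.23. The membrane proteins of entry and release are the class with a negative median, at -0.54, and the RSAD2 and CMPK2 pair has the highest, at 1.13.

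The membrane proteins that act on virus entry and release were the class with most falls, 3 of 5. BST2 (ENSG00000130303, chr19:17402939-17405648, minus strand), or tetherin, holds budding virions at the cell surface and had 264, 222 and 258 FPKM in knockdown against 413, 411 and 414 FPKM in control replicates. All knockdown libraries were lower, replicate 2 the lowest, at 0.60 times the control mean (log2 change -0.74, SE 0.066, adjusted p = 1.32e-05). The IFITM proteins sit in membranes and hinder the fusion of entering viruses. IFITM2 had 25.1, 21.0 and 26.6 FPKM in knockdown against 38.1, 36.5 and 34.9 FPKM in control replicates, a ratio of 0.664 (log2 change -0.58, SE 0.078, adjusted p = 1.68e-04). IFITM3 (ENSG00000142089, chr11:319669-327537, minus strand) had 443, 345 and 448 FPKM in knockdown against 586, 582 and 611 FPKM in control replicates, a ratio of 0.694 (log2 change -0.54, SE 0.091, adjusted p = 7.14e-04). Without knockdown replicate 2, the ratios were 0.632 for BST2, 0.708 for IFITM2 and 0.750 for IFITM3. All 3 falls were called in each of the 14 alternatives, with IFITM3 nearest to 0 at -0.30 after quantile normalization. IFITM1 was at 131 ± 18.6 FPKM in knockdown against 140.2 ± 16.5 FPKM in control libraries, which did not pass (adjusted p = 0.452, log2 change -0.10); its change was 0.07 with values rescaled to a common sum, 0.07 with the length trend removed and 0.02 without knockdown replicate 2. IFITM1, IFITM2 and IFITM3 share 35.3%, 45.2% and 56.0% of their 31-base words with other genes, each other among them, and the annotated spans of IFITM1 and IFITM2 overlap, so the division of reads among these genes is uncertain. PLSCR1, a phospholipid scramblase that limits virus entry, rose in the same class, at 98.6 ± 6.60 FPKM in knockdown against 75.1 ± 2.81 FPKM in control libraries (log2 change 0.39, adjusted p = 2.57e-04).

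Genes with an IFI name, grouped by name rather than by a shared function, were mixed: 2 rose, 1 fell and 2 did not pass, with a median log2 change of 0.17. IFI44L, which restrains the interferon response, had 20.1, 21.3 and 20.2 FPKM in knockdown against 14.3, 13.7 and 14.4 FPKM in control replicates (1.45-fold, log2 change 0.51, SE 0.049, adjusted p = 2.28e-05). IFI6, a membrane protein of the endoplasmic reticulum and mitochondria, had 880.1, 775 and 889 FPKM in knockdown against 734, 703 and 664 FPKM in control replicates (log2 change 0.27, SE 0.070, adjusted p = 0.00724), and its change was 0.44 to 0.46 with a common sum, quantile normalization or the length trend removed. IFI27, its relative and a widely used marker of interferon exposure, had 255, 222 and 247 FPKM in knockdown against 277, 260.0 and 280.0 FPKM in control replicates. The groups of IFI27 did not overlap and it fell (ratio 0.886, log2 change -0.18, SE 0.060, adjusted p = 0.0297). That call was lost with values rescaled to a common sum (-0.01), after quantile normalization (0.03) and without control replicate 1 (-0.16) or 3 (-0.16), so neither its direction nor its call was stable. IFI35 and IFI44 did not pass, at log2 changes of 0.17 (adjusted p = 0.106) and 0.09 (adjusted p = 0.0860). IFI35 passed upward in 5 of the 14 alternatives, among them the common sum (0.34, adjusted p = 0.00201), the replicate block (adjusted p = 0.0315) and the fit without knockdown replicate 2 (0.28, adjusted p = 0.00117). IFI44 passed upward in 3, the common sum (0.26), quantile normalization (0.15) and the length trend removed (0.25). IFI44 is 3650 bases from IFI44L and its groups did not overlap, with 124 ± 3.06 FPKM in knockdown against 116 ± 2.01 FPKM in control libraries. IFI35 overlapped through knockdown replicate 2, at 43.4 FPKM, while the other knockdown libraries, at 55.7 and 53.1 FPKM, were above the control range of 42.1 to 47.6 FPKM.

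PARP9 and DTX3L form a complex that adds ubiquitin and ADP-ribose to proteins at sites of damage and of interferon signalling, and TRIM22 is a ubiquitin ligase that acts on viral proteins. TRIM22 had 57.4, 63.1 and 60.3 FPKM in knockdown against 29.6, 28.7 and 29.6 FPKM in control replicates (2.06-fold, log2 change 1.02, SE 0.048, adjusted p = 2.34e-07). DTX3L had 72.4, 87.1 and 74.1 FPKM in knockdown against 45.0, 46.5 and 47.1 FPKM in control replicates (1.69-fold, log2 change 0.74, SE 0.067, adjusted p = 1.46e-05). Its partner PARP9, which shares the promoter stretch given above, rose too, at 39.1 ± 0.387 FPKM in knockdown against 27.5 ± 0.595 FPKM in control libraries (1.43-fold). XAF1, a pro-apoptotic partner of the inhibitor XIAP, had 11.3, 15.2 and 11.8 FPKM in knockdown against 4.52, 5.24 and 4.91 FPKM in control replicates. It rose 2.61-fold (2.36-fold without knockdown replicate 2; log2 change 1.22, SE 0.10, adjusted p = 8.00e-06), but 38.3% of its exonic bases overlap another gene and 36.6% of its 31-base words are shared, nearly all with the antisense gene PRAL, so its reads and those of that gene may not be separable. EPSTI1, named for its induction in epithelium by stroma, had 37.0, 39.1 and 37.7 FPKM in knockdown against 26.1, 26.8 and 25.5 FPKM in control replicates (1.45-fold, log2 change 0.52, SE 0.046, adjusted p = 1.17e-05). Shared 31-base words also touch USP18 (30.8%, mostly with USP41), GBP1 (18.4%) and TRIM22 (17.2%).

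**Figure D3:**
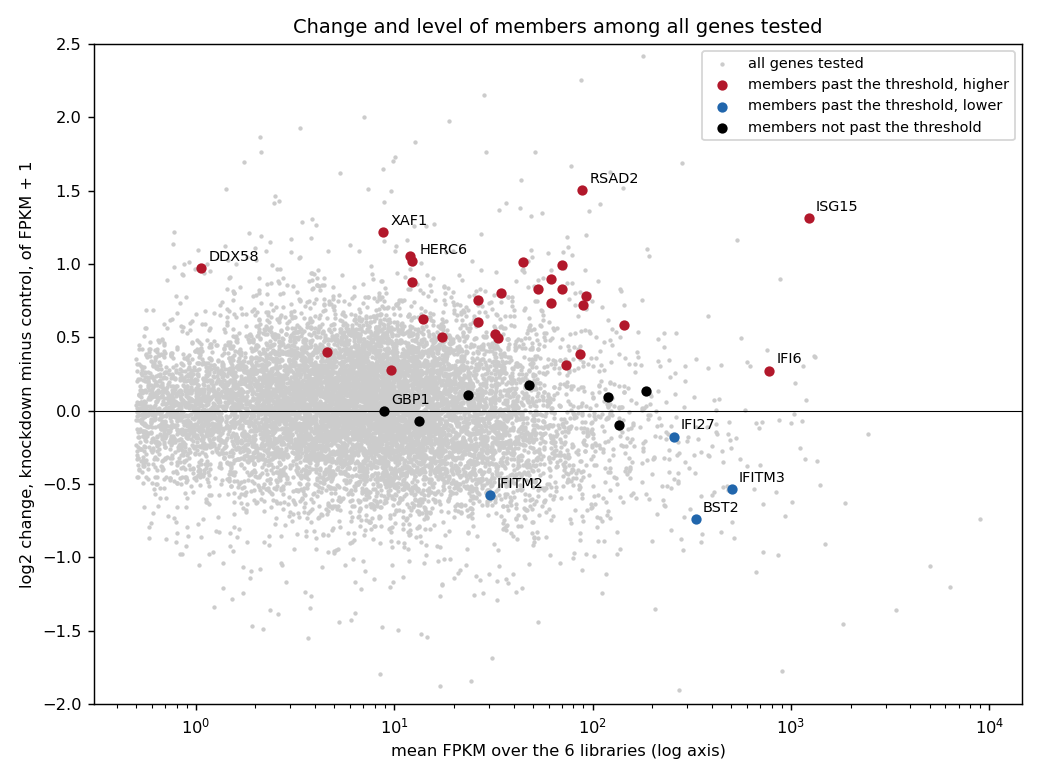
Log2 change (knockdown minus control, of FPKM + 1; vertical axis) against mean FPKM over the 6 libraries (log axis) for all genes tested (grey; 12 lie outside the plotted range) and for the members, red where higher, blue where lower and black where not past the threshold. The members that fell lie above 30 FPKM, and members that rose span the range from DDX58 to ISG15.

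Level and the length implied by FPKM varied along with the members' changes. Across the 39 members the Spearman correlation of the control level with the log2 change was -0.33, and that of the length implied by the FPKM values with the log2 change was 0.43. Over all 11214 genes tested the correlation with length was 0.30; the points share libraries and normalization, so these are descriptions. The median change of all genes was -0.19 in the 10% of genes with the shortest implied lengths, up to 2097 bases, and 0.17 in the 10% with the longest. For some members the implied length exceeds the exonic bases in GENCODE v29, as for OAS1 (13125 against 4947) and IFITM3 (2867 against 1348). For others it is close, as for IFIT1 (4651 against 4613). Implied lengths may therefore differ from those of the transcripts present. The shortest 10% held 9 members with a median of 0.13, and the longest 10% held 6 with a median of 0.73. BST2, IFITM2, IFITM1, UBE2L6, IFI35 and IFI44, which fell or did not pass, have implied lengths of 1110 to 2079 bases. The other members that fell or did not pass are longer: IFITM3 (2867 bases), IFI27 (4180), HERC5 (4802), GBP1 (6152) and OAS1 (13125). ISG15 (874 bases), IFI6 (944 bases) and USP18 (1873 bases) are also short and rose, with log2 changes of 1.31, 0.27 and 0.83. With the length trend removed from each library, 31 members were higher and 4 lower, with a median of 0.52, and BST2 was at -0.55 and ISG15 at 1.5. What part length has in the difference between classes was not tested.

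**Figure D4:**
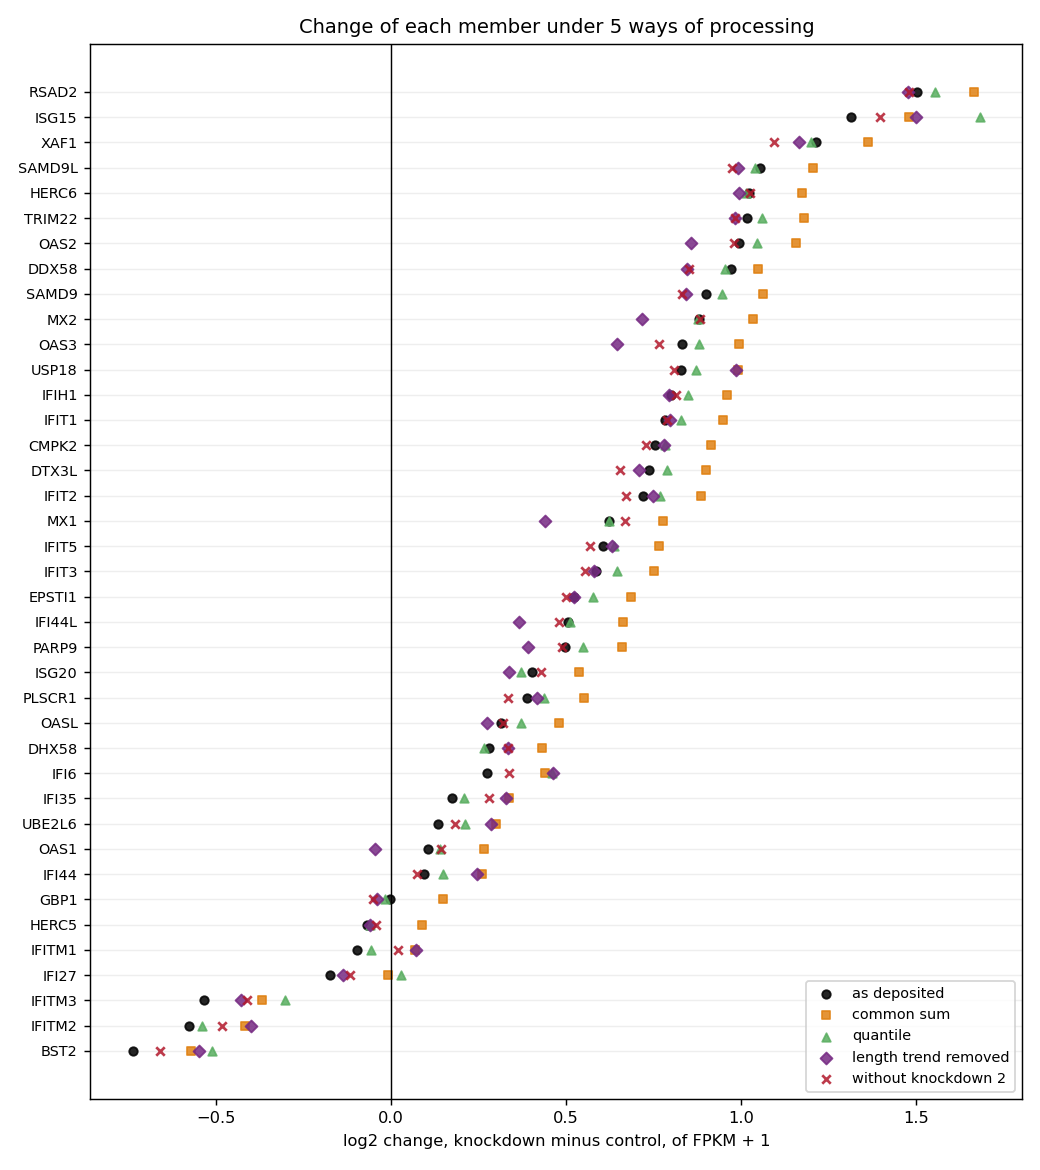
Log2 change (knockdown minus control, of FPKM + 1) of each member, ordered by its value as deposited, under 5 treatments of the data: as deposited, rescaled to a common sum, quantile normalized, with the length trend removed, and without knockdown replicate 2. RSAD2, ISG15 and XAF1 stay right of 1.0 and IFITM3, IFITM2 and BST2 left of 0 in each, while OAS1, GBP1, HERC5, IFITM1 and IFI27 cross 0.

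Upstream of the effectors, the interferon genes themselves were low and mostly higher in the knockdown. Of the 5 ligand genes tested, 4 rose, 0 fell and 1 did not pass (median log2 change 0.86). Over all genes tested, 29.5% were higher and 27.8% lower. IFNB1, interferon beta, had 45, 48 and 49 reads in knockdown against 19, 23 and 22 reads in control replicates, or 4.0 ± 0.269 and 1.76 ± 0.243 FPKM (log2 change 0.86, adjusted p = 2.50e-05). The type III gene IFNL3 had 41, 55 and 50 reads in knockdown against 14, 20 and 19 in control replicates (log2 change 1.08, adjusted p = 1.96e-05). IFNL2, its near-identical copy, had 51, 41 and 52 reads in knockdown against 29, 31 and 7 in control replicates (log2 change 0.89, adjusted p = 0.0114), and the division of reads between the copies is uncertain. IFNL1 was at 9.73 ± 0.806 FPKM in knockdown against 6.45 ± 1.08 FPKM in control libraries (log2 change 0.53, adjusted p = 0.00161). All 3 type III genes and IFNB1 were without overlap between the groups. IFNE, the epithelial type I interferon, was at 0.883 ± 0.168 FPKM in knockdown against 1.23 ± 0.214 FPKM in control libraries, short of the threshold (adjusted p = 0.0538), and the keratinocyte interferon IFNK, at 0.198 ± 0.0736 and 0.117 ± 0.0543 FPKM, was under the filter.

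**Figure D5:**
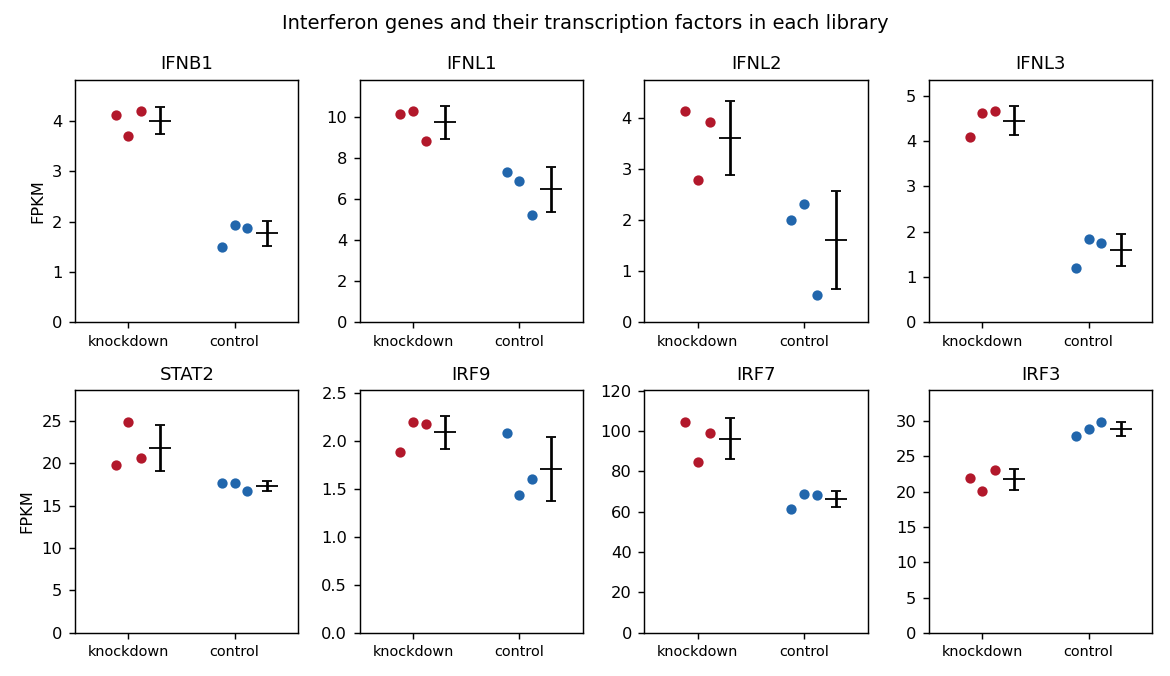
FPKM (vertical axes, from 0) of 4 interferon genes and 4 transcription factor genes of the pathway in each knockdown (red, left) and control (blue, right) library, with the mean ± SD (n = 3). IFNB1, IFNL3 and IRF7 are higher in every knockdown library than in any control library, IRF3 is lower in every one, and IRF9 overlaps.

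Of 7 receptor and kinase genes tested, 3 rose, 2 fell and 2 did not pass (median 0.02), beside 29.5% of all genes tested that were higher and 27.8% that were lower. With a common sum TYK2 passed upward too (adjusted p = 0.0309), for 4 higher and 2 lower. The type II receptor chains fell: IFNGR2 was 12.6 ± 0.368 FPKM in knockdown against 19.1 ± 0.611 FPKM in control libraries (log2 change -0.56), and IFNGR1 was 70.2 ± 2.26 and 94.5 ± 1.32 FPKM (log2 change -0.42). JAK2, their kinase, rose (log2 change 0.45), at 2.97 ± 0.481 FPKM in knockdown against 1.90 ± 0.0849 FPKM in control libraries. The type I receptor chain IFNAR1, at 6.86 ± 0.612 and 7.04 ± 0.0543 FPKM, did not pass, and IFNAR2 was not analysed here. IL10RB was under the filter, with 3 to 9 reads per library. Of its exonic bases, 38.1% overlap another gene on the same strand, so its level is uncertain. A list held 9 genes of nucleic acid sensing and signalling, among them CGAS, TLR3, STING1 and TICAM1 outside the RIG-I and MDA5 route. Of these 9 genes, 1 rose, 3 fell and 5 did not pass (median 0.02). With a common sum, 3 were higher and 1 lower (median 0.17), so the balance of this list turned with the scaling. TRIM25, the ubiquitin ligase that activates RIG-I, rose (log2 change 0.54, adjusted p = 2.38e-04), while the kinase IKBKE (log2 change -0.45) and the adaptor STING1 (log2 change -0.29) fell. With a common sum STING1 (adjusted p = 0.119) and TICAM1 (adjusted p = 0.435) no longer passed, and MAVS (adjusted p = 0.0127) and TBK1 (adjusted p = 0.0370) passed upward. Of 7 factors and feedback genes 3 rose, 1 fell and 3 did not pass (median 0.19): IRF7 rose, at 96.1 ± 10.2 FPKM in knockdown against 66.1 ± 4.01 FPKM in control libraries (log2 change 0.53, adjusted p = 2.52e-04), as did STAT2 (log2 change 0.30). IRF3 fell (log2 change -0.40), and IRF9 (0.19, adjusted p = 0.112) and IRF1 (0.00, adjusted p = 0.990) did not pass as deposited. Both passed upward with a common sum (adjusted p = 0.0247 for IRF9 and 0.0487 for IRF1). The change of IRF1 ranged from -0.14 to 0.15 over the alternatives. IRF9 was low, with 88, 122 and 109 reads in knockdown against 114, 73 and 81 reads in control replicates. Of its exonic bases, 48.4% overlap another gene on the same strand, so the division of its reads is uncertain.

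A further 30 interferon-stimulated genes outside the members were all tested, of which 23 rose, 4 fell and 3 did not pass (median 0.40). The shares over all genes tested were 29.5% higher and 27.8% lower. DDX60L, a helicase-like gene, had the largest change, at 18.1 ± 0.484 FPKM in knockdown against 6.99 ± 0.152 FPKM in control libraries (2.60-fold, log2 change 1.26, adjusted p = 1.21e-07), and its neighbour DDX60 rose with a log2 change of 0.82. GBP2, a guanylate-binding protein like GBP1, fell to 2.46 ± 0.249 FPKM in knockdown, against 5.64 ± 0.486 FPKM in control libraries (log2 change -0.94, adjusted p = 1.18e-05). With values rescaled to a common sum, 40 of the 58 pathway genes tested were higher and 7 lower, against 34 and 10 as deposited. That rescaling left 43.4% of all genes tested higher and 16.4% lower.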

How the data were processed

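Per the labels' protocols, total RNA was extracted with TRIzol and libraries were made with an Illumina TruSeq RNA kit; the RNA selection step is not given in the sources used here. A single table deposited by the authors gives FPKM by gene and library, from reads aligned, per the submitters' processing notes, with HISAT2 2.2.1 to GRCh38. What program counted reads, with which annotation, lengths, strand setting and filter, is not stated there or in the labels; the lowest mean of any gene in the table is 0.1 FPKM. FPKM divides by depth, so changes of abundant genes shift all others.

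FPKM steps gave whole reads for all 12829 genes (tolerance 0.004 reads), up to a divisor common to a gene's counts; they served for depth, for implied lengths and for an alternative test. Knockdown was compared with control by limma 3.58.1 (R 4.3.3), fitted to log2(FPKM + 1), with a variance trend, group as the only factor, a filter of a mean of 0.5 FPKM (11214 genes), two-sided tests and Benjamini-Hochberg adjustment over all genes tested (threshold 0.05). IQGAP2, under the filter, was added to the fit and given an exact permutation test. The scripts for limma and for the recovery of reads were tested on simulated data. Positions and shared 31-base words came from GENCODE v29 (GRCh38), promoters from RefSeq (GRCh38.p14).

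Groups were taken from the sample labels. Labels number the replicates 1 to 3 per group without stating that equal numbers belong together. The members, classes and gene lists were chosen with earlier results of these data known. Every member is named; values per library are given for the 2 members of each class with the largest change and for each member that fell, of each pathway list the 3 called genes with the largest change are named, with STAT2, IRF9, IRF1 and IRF7, and of each marker list the gene with the highest mean. The results of 1 further pathway gene, not a member, are not reported here. Other genes named, such as IFNAR1, IFNE, IFNK, IL10RB, TYK2, TICAM1, MAVS, TBK1, DSG3, COL17A1 and ITGA6, were named after their values were seen. Alternatives were a common FPKM sum, quantile normalization, a pseudocount of 0.1, no filter and a filter of 5 FPKM, the replicate number as a block, voom on recovered reads, a length trend removed by loess (span 0.5), and each library left out. An alternative without DDX58 was added after seeing the data.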

Additional observations from a re-analysis of the deposited data

How the results depend on the processing

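Over 14 alternatives 30 of the 39 members kept their direction and their side of the threshold in each, and 9 did not in at least 1. The changed directions were all of members near 0 or of IFI27: IFI27 was at 0.028 after quantile normalization; HERC5 at 0.087, GBP1 at 0.15 and IFITM1 at 0.067 with values rescaled to a common sum; OAS1 at -0.047 and IFITM1 at 0.070 with the length trend removed; and GBP1 at 3.98e-04 by voom on recovered reads. With 1 library left out GBP1 lay between -0.051 and 0.033, above 0 without control replicate 2 or knockdown replicate 1 or 3, and IFITM1 between -0.19 and 0.020, above 0 without knockdown replicate 2. The cause was not tested. The members' median log2 change, 0.59, was 0.75 with a common sum, 0.62 after quantile normalization, 0.52 with the length trend removed and 0.55 without DDX58, and 0.55 to 0.61 with 1 library left out. A common sum left 1838 genes lower among all tested, against 3121. The log2 change of IQGAP2 was -0.23 to -0.22 with 1 library left out and lost its call in 4 of these 6 fits; it was -1.26 with a pseudocount of 0.1 and -2.86 by voom. Counts of members ranged from 27 to 32 higher and from 3 to 4 lower.

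Same-numbered libraries did not deviate together (correlations of -0.067, -0.038 and 0.019). Whether they were prepared together is not stated, and the absence of a shared deviation cannot decide it. With the replicate number as a block, 29 members were higher and 4 lower, and 3167 genes higher and 3024 lower among all tested. Depth limits DDX58, IQGAP2 and the interferon genes most, which had the fewest reads.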
